A study of Mus musculus with 6 samples.

Results

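The replication-dependent histone genes of the mouse were followed through messenger RNA libraries of DC2.4, a mouse dendritic cell line. They were taken as every row of the deposited gene table that was annotated as protein-coding and carried a symbol of the Hist1h, Hist2h, Hist3h or Hist4h series, which gave 67 of 54532 genes. A further 3 rows with such symbols were pseudogenes and were left out. The 67 genes lay in the known histone clusters, 54 on chromosome 13, 10 on chromosome 3, 2 on chromosome 11 and 1 on chromosome 6. They comprised 6 genes for the linker histone H1, 18 for H2A, 18 for H2B, 12 for H3 and 13 for H4.

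The study set 3 libraries of DC2.4 cells transfected with the empty pTT5 vector against 3 libraries of cells transfected with a vector for Vdbp, the vitamin D-binding protein, and the design text states that its overexpression in dendritic cells was examined. Both groups were the same line, and both were diluted into fresh medium at 48 h and then placed under selection, so that the controls shared the transfection and the selection. The labels call the cells both bone marrow derived dendritic cells and the DC2.4 line, name no clone, and do not say whether the 3 samples of a group were separate cultures. The p-values therefore measure only the spread between these samples, which may be technical.

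Replication-dependent histone genes supply the histones that package newly copied DNA, and their RNA accumulates during S phase. Their transcripts normally carry no poly(A) tail: they end just after a conserved stem-loop that the stem-loop binding protein Slbp recognises. Most also lack introns. Some of these genes can in addition give longer, polyadenylated transcripts from a signal further downstream, and replacement histones such as H3.3 and H2A.Z come from separate genes with ordinary polyadenylated messages. The labels describe messenger RNA libraries prepared from total RNA, and do not say whether poly(A) selection was used.

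The stem-loop and the poly(A) signal of a few members are shown because 3 of the 4 genes with most counts carry a poly(A) signal at their annotated end. They were read from the GENCODE M21 transcripts on GRCm38, each 5′ to 3′ on the gene's own strand, with capitals marking the 16 bases of the stem-loop or the 6 bases of the poly(A) signal. Coordinates cover the whole printed stretch, flanking bases in lower case included, while distances to the transcript end are counted from the last base in capitals. Hist1h1c carried its stem-loop within chr13:23739507-23739532 (plus strand), with 840 bases from it to the annotated transcript end, and a poly(A) signal within chr13:23740337-23740352, with 20 bases from it to that end. Hist1h4i carried its stem-loop within chr13:22040961-22040986 (minus strand), with 330 bases from it to the end, and a poly(A) signal within chr13:22040646-22040661. Hist2h2be had no stem-loop match in its annotated 3′ UTR and a poly(A) signal within chr3:96223712-96223727 (plus strand). Hist1h4m, in contrast, ended 3 bases after its stem-loop, which lay within chr13:21812124-21812147 (plus strand), and no poly(A) signal was found at its end.
Hist1h1c stem-loop: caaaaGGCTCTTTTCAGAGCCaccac
Hist1h1c poly(A) signal: cttctAATAAAaagcg
Hist1h4i stem-loop: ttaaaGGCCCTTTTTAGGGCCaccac
Hist1h4i poly(A) signal: tttacATTAAAagtat
Hist2h2be poly(A) signal: ttattAATAAAgttac
Hist1h4m stem-loop: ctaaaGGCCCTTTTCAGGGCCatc

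The search for the stem-loop used the letters GGNNCTNTTNAGNNCC on the transcript strand of the 3′ UTR, where N is any base. It found a match in 44 of the 67 members (65.7%). Other protein-coding genes were searched at any position of their transcripts, not in the 3′ UTR alone. There 93 of 21763 matched (0.427%), and the members searched in that way again gave 44 of 67. The commonest form, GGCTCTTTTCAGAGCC, stood in 26 members, of the H1, H2A, H2B and H3 classes. The form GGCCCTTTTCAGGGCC stood in 7 members, all of them H4 genes. A poly(A) signal, AATAAA or ATTAAA, lay within the last 50 bases of an annotated transcript in 17 members (25.4%), against 17012 of the 21763 other genes (78.2%).

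Library totals ran from 15563800 to 16710975 counts. The marker genes of myeloid cells were all detected, with 10 of 10 tested and a summed level of 4919 to 5900 CPM, which sets each count against its library total after TMM scaling. The summed levels of the epithelial and T cell markers stayed at or under 0.298 CPM. Those of the B cell markers were 1.91 to 3.19 CPM and those of the fibroblast markers 1.12 to 2.25 CPM. Gc, the mouse gene for Vdbp, had 0 counts in all 6 libraries, which allows at most 0.177 to 0.191 CPM at 3 counts per library, so the second group is called the libraries labelled Vdbp. Departures from the mean followed gene GC content in the library labelled Vdbp replicate 1 (Spearman rho 0.73) and, in the opposite sense, in empty-vector replicate 2 (rho -0.62) and Vdbp replicate 3 (rho -0.40). In the other 3 libraries rho lay between -0.07 and 0.07.

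Histone transcripts of this kind were a small share of the libraries. The 67 genes together held 7253, 6742 and 7063 counts in empty-vector replicates 1, 2 and 3, and 6476, 6967 and 6625 counts in the corresponding libraries labelled Vdbp. These were between 0.0392% and 0.0443% of all counts. In summed CPM the empty-vector libraries reached 445.3, 406.6 and 417.2, a mean of 423 ± 20.0 (SD, n = 3). The libraries labelled Vdbp reached 402.6, 415.8 and 422.7 CPM, a mean of 414 ± 10.2 (SD, n = 3). The groups overlapped, and the log2 ratio of their sums, -0.03, was smaller than the spread between libraries of a group (pooled SD 0.05). In bulk libraries, fewer cells in S phase and less histone RNA per cell cannot be told apart.

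Detection varied between members more than between libraries. Of the 67 genes, 59 had a count in at least 1 library, 47 in all 6, and 8 in none. Single libraries held counts for 51 to 55 members, and 23 to 29 members reached 10 counts in a given library. The mean count over the 6 libraries was under 10 for 44 members and 100 or more for 6. After the filter on low counts 25 members remained for testing (37.3%), compared with 11103 of 22046 protein-coding genes (50.4%). The 42 members outside the test held 2.12% of all member counts.

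**Figure D1:**
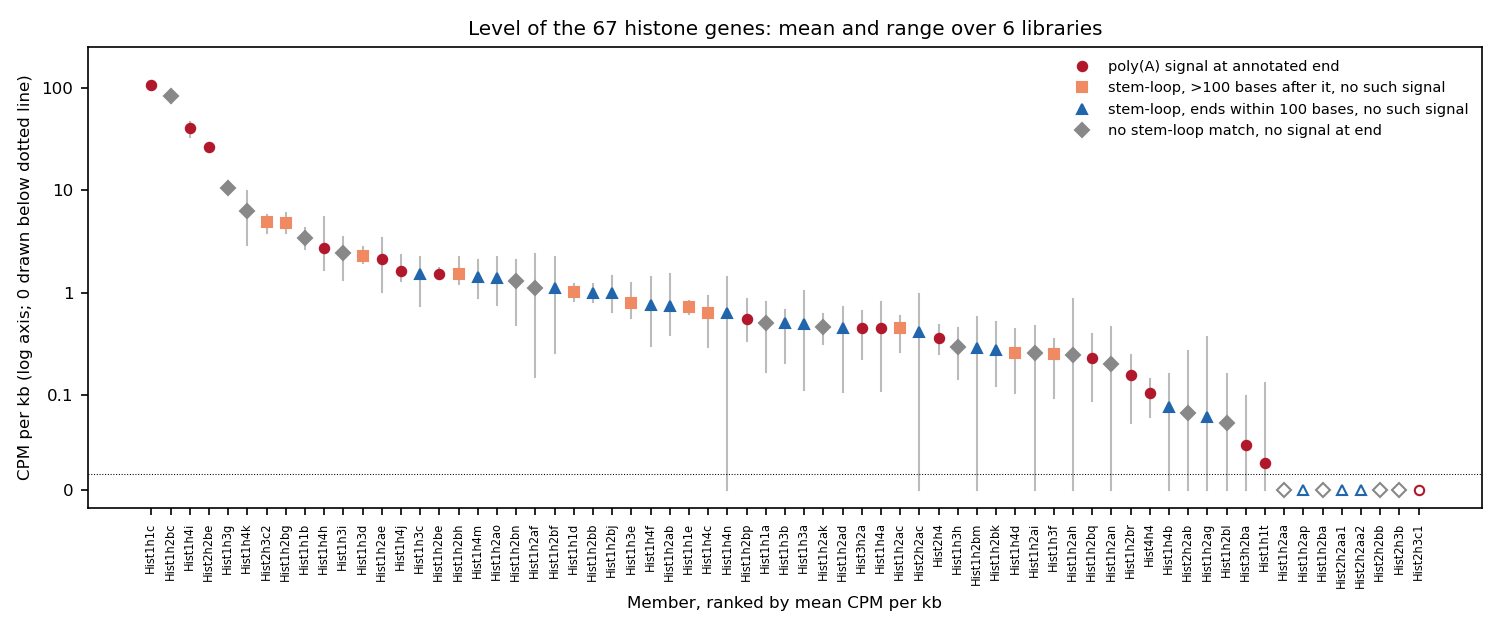
Mean CPM per kb of gene length (log axis) of each of the 67 histone genes, ranked, with a line from the lowest to the highest of the 6 libraries, and symbols giving what the annotated transcript ends with. Hist1h1c, Hist1h2bc, Hist1h4i and Hist2h2be stand at 26.2 to 106.1 CPM per kb, 43 members lie under 1 CPM per kb, and the 8 members at 0 are drawn as open symbols under the dotted line.

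A small number of genes held nearly all of these counts. Hist1h1c alone held 39.5% of the member counts, the leading 4 genes 86%, and 7 genes were enough for 90%. Per kb of gene length the median member stood at 0.504 CPM per kb, and 5 members lay above 6.51 CPM per kb, the median over all 12844 tested genes. The order by CPM per kb began with Hist1h1c, Hist1h2bc, Hist1h4i, Hist2h2be and Hist1h3g. The ranges of the first 2 met over the 6 libraries, at 95.1 to 114.2 CPM per kb for Hist1h1c and 71.5 to 95.5 for Hist1h2bc. Within each library Hist1h1c was nevertheless the higher of the 2. The next 3 were separate from each other, at 33.2 to 46.6 for Hist1h4i, 23.9 to 27.5 for Hist2h2be and 9.25 to 12.4 for Hist1h3g.

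The annotated ends of the transcripts were then set beside the levels. The 17 members with a poly(A) signal at an annotated end held 66.5% of all member counts, 8 of them were tested, and Hist1h1c, Hist1h4i and Hist2h2be were among them. The 11 members whose transcripts ran over 100 bases past the stem-loop without such a signal held 6.03% of the counts and 8 were tested. The 20 members annotated to end within 100 bases of the stem-loop, again without such a signal, held 1.44%, 3 were tested, and none had a mean count above 15.7. The remaining 19, with no stem-loop match and no signal in the last 50 bases, held 26.0%, nearly all of it from Hist1h2bc, and 13 of them have no annotated 3′ UTR to search. In Hist1h2bc the last poly(A) signal lay 441 bases before the transcript end. The medians of the groups did not follow their shares of the counts: they were 0.458 CPM per kb with a signal at the end, 0.792 and 0.500 with a longer and a shorter stretch after the stem-loop, and 0.298 in the remaining 19. The large share of the first group was thus that of Hist1h1c, Hist1h4i and Hist2h2be. In the same order of groups the medians of the mean counts were 9.67, 23, 4.42 and 2. These medians ranked the groups differently from those per kb, and the median gene lengths were 1560, 1249, 483.5 and 399 bases. Whether levels differ by transcript end was not tested. The part of the library preparation in these levels was not tested. A list of 9 RNAs known to lack a poly(A) tail gave the same libraries 27 to 43 counts in sum. On it 5 genes had 0 counts throughout, and Terc, Rn7sk and Rny1 had the most. These RNAs are short, from 62 bases for Rnu7 to 423 for Terc, and how well the libraries hold RNA of such length was not tested. Sequence shared with other genes was not examined for them, and how reads with several matches were counted is not given. Their counts of 0 therefore cannot be read as absent transcripts.

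Among the linker histones, which bind the DNA between nucleosomes, Hist1h1c (ENSMUSG00000036181, chr13:23738808-23740367, plus strand) led all members. It had 2902, 2461 and 2781 counts in the empty-vector libraries and 2696, 2698 and 2726 in the libraries labelled Vdbp. The empty-vector values spanned those of the other group. Its level was 164 ± 14.9 CPM against 168 ± 6.46 CPM (SD, n = 3), a log2 fold change of 0.03 ± 0.10 (SE, edgeR adjusted p = 0.92). Hist1h1b, another somatic H1 gene, had 41, 46 and 40 counts against 32, 54 and 36, and stood at 3.40 CPM per kb. Summed over the 6 H1 genes the level was 176 ± 15.7 CPM in the empty-vector and 179 ± 6.60 CPM in the Vdbp-labelled libraries. The testis-specific Hist1h1t had 2 counts in all, both in empty-vector replicate 2.

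The H2B class was carried by a pair of genes. Hist1h2bc (ENSMUSG00000018102) is annotated with 2 exons, at chr13:23684199-23684621 and chr13:23692176-23692908 on the plus strand, and its transcript holds no stem-loop match. It had 1799, 1798 and 1546 counts in the empty-vector libraries and 1329, 1530 and 1412 in the libraries labelled Vdbp. Every Vdbp-labelled value lay under every empty-vector value, by a narrow margin between empty-vector replicate 3 at 91.33 CPM and Vdbp replicate 2 at 91.31 CPM. The means were 103 ± 10.5 and 88.0 ± 4.71 CPM (SD, n = 3), a log2 fold change of -0.23 ± 0.10 (SE, 95% interval -0.46 to -0.01), with an unadjusted p of 0.0424 and an edgeR adjusted p of 0.781. Hist1h2bc thus did not pass the threshold of 0.05.

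Hist2h2be (ENSMUSG00000068854, chr3:96221119-96223738, plus strand) shared no 50-base window with another gene. Its counts were 1080, 1145 and 1197 against 1009, 1209 and 1118, with overlapping groups. The means were 68.7 ± 2.23 and 68.7 ± 5.22 CPM (SD, n = 3), a log2 fold change of 0.00 ± 0.10 (SE, 95% interval -0.21 to 0.22, edgeR adjusted p = 0.997). The remaining H2B genes were far lower. Hist1h2bg had 39, 41 and 49 counts against 45, 62 and 57, a log2 fold change of 0.38 ± 0.22 (SE). Hist1h2bh had 46, 63 and 39 counts against 33, 34 and 36, and its groups did not overlap either, with the Vdbp-labelled libraries lower (log2 fold change -0.48 ± 0.25, edgeR adjusted p = 0.781). Hist1h2bn, with the lowest mean count among the tested members (8.17), had 13, 5 and 12 counts against 3, 5 and 11. The H2B sum was 188.5 ± 9.92 CPM against 172 ± 11.4 CPM (SD, n = 3), with overlap between the groups.

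H2A genes, whose products pair with H2B, had few counts. The 18 genes summed to 5.63 ± 1.06 CPM in the empty-vector libraries and 6.56 ± 0.66 CPM in the Vdbp-labelled ones (SD, n = 3), and 4 of them were tested. Many share most of their 100-base windows with other genes, such as Hist1h2ah (89.5%) and Hist1h2ai (88.4%), while Hist1h2ac shares 8.06%. How reads with several matches were counted is not given, so the low sum cannot be read as a low transcript level. Hist1h2ae (ENSMUSG00000069272, chr13:23570517-23571220, minus strand) was the highest per kb, at 2.15 CPM per kb. It had 19, 12 and 20 counts in the empty-vector libraries and 27, 32 and 38 in the libraries labelled Vdbp. Every Vdbp-labelled value was above every empty-vector value. Its level was 1.02 ± 0.26 against 2.00 ± 0.38 CPM (SD, n = 3), a log2 fold change of 0.96 ± 0.31 (SE, 95% interval 0.30 to 1.63), the largest among the tested members. The unadjusted p was 0.00842 and the edgeR adjusted p 0.781, so the difference did not pass the threshold. Of its exon bases 19.6% lie opposite another gene, and the counting is not stated to use strand. On either strand 30.7% of its 100-base windows occur in other genes, the gene opposite it included, so its reads cannot all be assigned with certainty.

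Hist1h2ao had 10, 6 and 7 counts against 11, 18 and 14, again without overlap between the groups. Its log2 fold change was 0.93 ± 0.40 (SE), with an unadjusted p of 0.0384 and an edgeR adjusted p of 0.781. It passed the filter on low counts through the Vdbp-labelled libraries, the group where it was higher, so neither the p nor the lack of overlap supports a difference. Since 92.6% of its 100-base windows occur in other genes as well, its reads could have come from near-identical copies. Hist3h2a, which shares 33.0% of its exon bases with Trim17 or another gene on the same strand, had 8, 16 and 24 counts against 12, 21 and 16.

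**Figure D2:**
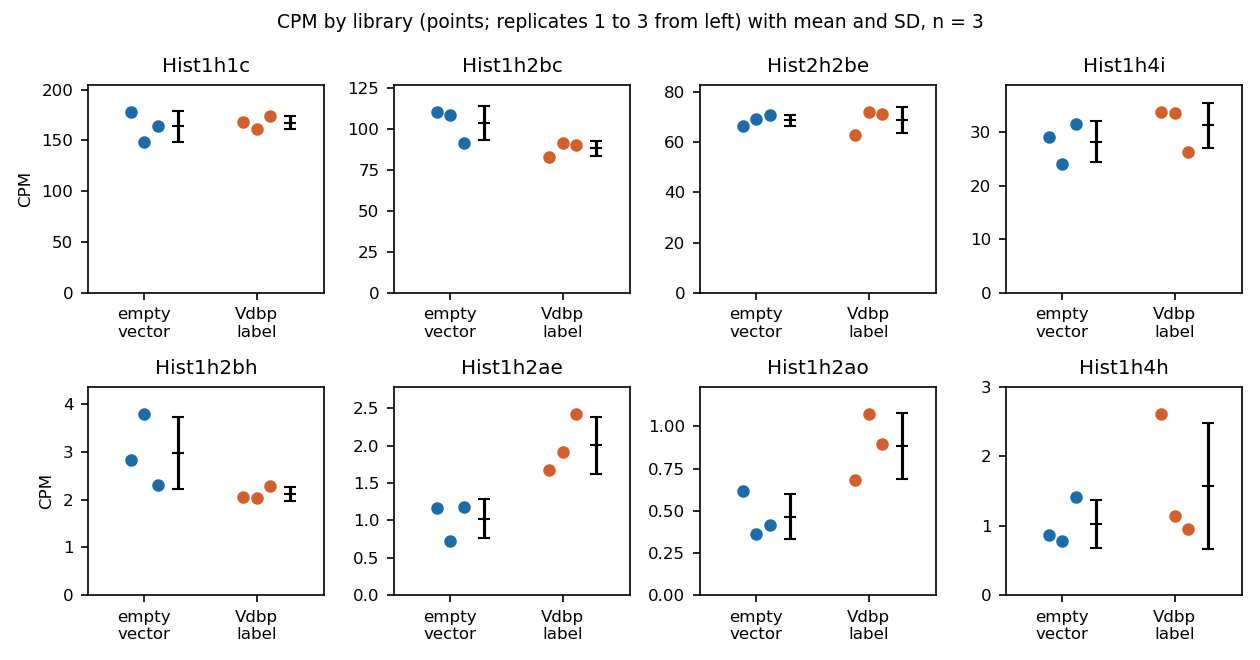
CPM in each library (points, replicates 1 to 3 from left to right) with the mean and SD of 3 libraries, for the 4 members with the most counts and for Hist1h2bh, Hist1h2ae, Hist1h2ao and Hist1h4h. The groups did not overlap for Hist1h2bc and Hist1h2bh (Vdbp label lower) or for Hist1h2ae and Hist1h2ao (Vdbp label higher), and none of the 8 genes passed the adjusted threshold.

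The H3 genes, which encode the histone whose tail carries many regulatory marks, summed to 17.1 ± 0.98 CPM in the empty-vector and 17.2 ± 0.26 CPM in the Vdbp-labelled libraries. Hist1h3g was the highest per kb, with 88, 91 and 83 counts against 87, 100 and 103 and a level of 10.6 CPM per kb. The groups overlapped, and the log2 fold change was 0.18 ± 0.17 (SE). Hist2h3c2 had 94, 77 and 90 counts against 94, 66 and 70, and Hist1h3d had 46, 43 and 54 against 44, 58 and 38. Both overlapped between the groups. Hist1h3i, Hist1h3c and Hist1h3e had mean counts of 16.5, 15.7 and 10.8, and 87.6% of the 50-base windows of Hist1h3i were shared with other genes.

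Of the H4 genes, Hist1h4i (ENSMUSG00000060639, chr13:22040636-22041362, minus strand) stood apart. It had 476, 400 and 534 counts in the empty-vector libraries and 545, 564 and 414 in the Vdbp-labelled ones. The lowest value came from the empty-vector group and the highest from the other, and the groups overlapped. The means were 28.3 ± 3.80 and 31.3 ± 4.25 CPM (SD, n = 3), a log2 fold change of 0.15 ± 0.14 (SE, edgeR adjusted p = 0.795). Hist1h4k followed at 6.25 CPM per kb with 25, 15 and 37 counts against 33, 51 and 31. Hist1h4h had 14, 13 and 24 counts against 42, 19 and 15, so that its log2 fold change of 0.61 ± 0.42 (SE) rested on Vdbp replicate 1, the library that departed most with GC content, and was 0.04 without it. Hist2h4 was the untested member with the highest mean count, at 13, 7 and 10 against 9, 7 and 12.

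**Figure D3:**
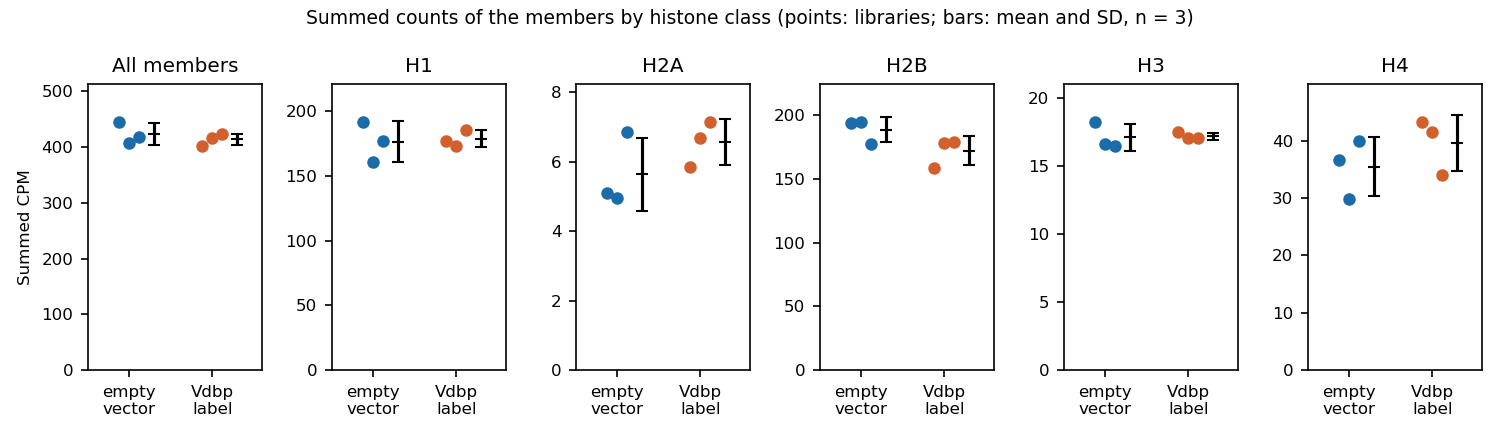
Summed CPM of all 67 members and of each histone class, by library (points), with the mean and SD of 3 libraries beside them, on axes that start at 0. Each panel shows overlapping groups, and the H1 and H2B genes carry most of the sum while the H2A genes reach no more than 7.15 CPM.

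Across the 25 tested members the comparison between the groups gave no call. None of the members passed an adjusted p of 0.05 in edgeR's quasi-likelihood test, in which 0% of the 12844 tested genes passed. At an unadjusted p under 0.05 there were 3 members (12%), Hist1h2ae, Hist1h2ao and Hist1h2bc, against 5.35% of all tested genes. The Vdbp-labelled group lay wholly lower for 2 members (8%), against 5.61% of all tested genes, and wholly higher for 2 members (8%), against 5.26%. DESeq2 called none of the members and 0.0166% of 24134 genes, and edgeR with no such filter called none of the 59 members with counts and 0.369% of 24135 genes. With 25 tested genes these shares rest on a few members each. Hist1h2ao, in the first and last of the members' shares, passed the filter on low counts through the Vdbp-labelled group, where it was higher. Its p and its lack of overlap therefore lend no support to a difference.

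The tested members split into 13 with a positive and 12 with a negative log2 fold change. Their median was 0.00 and that of all tested genes -0.01, on the log2 scale. The values ran from -0.61 for Hist1h2bn to 0.96 for Hist1h2ae. For 16 of the 25 the 95% interval lay within a 2-fold change in either direction, compared with 89.3% of all tested genes, so for the other 9 a 2-fold difference was within the interval. The members had a median GC content of 53.7%, against 49.5% over all tested genes. With a length and GC trend removed from each library their median was -0.08, against 0.00 for all genes, and still no member was called.

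**Figure D4:**
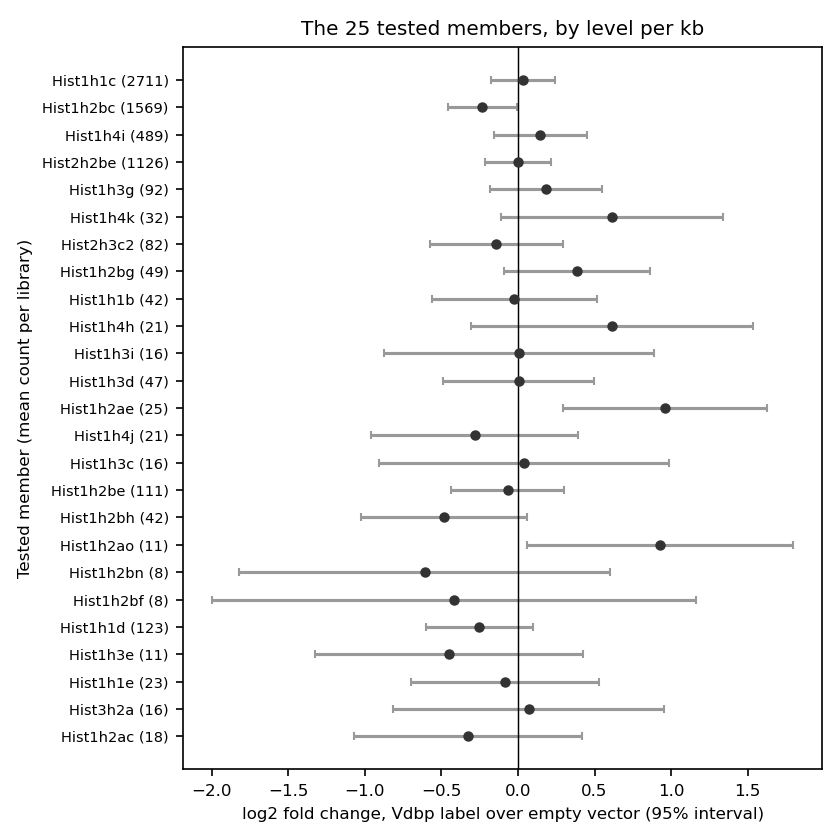
Log2 fold change of the libraries labelled Vdbp over the empty-vector libraries with its 95% interval, for the 25 tested members in order of level per kb, with the mean count per library in parentheses. The intervals of Hist1h2ae and Hist1h2ao lie above 0 and that of Hist1h2bc below it, and intervals are widest for members with mean counts near 8, such as Hist1h2bn and Hist1h2bf.

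The spread between replicates was set against counting error. The median ratio of the observed CV to the CV that Poisson counting alone gives was 1.30 for the tested members, over both groups. For all tested genes it was 1.82 in the empty-vector and 2.25 in the Vdbp-labelled libraries. This ratio depends on depth, and many tested members had few counts. The lower median therefore does not show that the members vary less than other genes. Some members with many counts lay above the members' median of 1.30. Hist1h2bc had a CV of 10.2% in the empty-vector libraries, where counting alone gives 2.42%, and Hist1h4i 13.4%, where it gives 4.61%. Hist2h2be differed by group. It had 3.24% in the empty-vector libraries, where counting alone gives 2.96%. In the Vdbp-labelled libraries it had 7.597%, where counting alone gives 2.999%. Hist1h1d lay under the median of 1.30 in each group. It had 10.59% in the empty-vector libraries, where counting alone gives 8.596%. In the Vdbp-labelled libraries it had 9.12%, where counting alone gives 9.51%. Among the 25 tested members Hist1h2bf had the largest CV, 61.1% and 114% in the empty-vector and Vdbp-labelled libraries, from 14, 3 and 12 counts against 3, 2 and 16. For Hist1h1c the CVs were 9.10% and 3.86%, where counting alone gives 1.92%.

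Most members whose sequence also occurs in other genes had counts, except where all of it did. All 5 members in which every 100-base window also occurs in another annotated gene, Hist2h2aa1, Hist2h2aa2, Hist2h2bb, Hist2h3b and Hist2h3c1, had 0 counts in every library. Windows were matched on either strand, and genes annotated over the same bases counted as other genes. Such genes lie over all 5 loci. On the same strand they cover 100% of the exon bases of Hist2h3c1, 90.3% of those of Hist2h2aa1 and 59.3% of those of Hist2h2bb. On the opposite strand they cover 100% in the 4 other than Hist2h3c1. The full sharing of these 5 members is thus given by that overlap and does not by itself show copies elsewhere. Among the 12 members with 75% to under 100% shared windows 1 was at 0 (Hist1h2ap) and 1 was tested. Among the 23 members with under 25% shared windows 1 was at 0 and 11 were tested. Over all 67 members the shared percentage and the CPM per kb had a Spearman rho of -0.32, a description across genes that are not independent. How the authors' counting treated reads with several matches, or reads over overlapping genes, is not given in the sources used here. A count of 0 in such a gene therefore cannot be read as an absent transcript. The other 2 members at 0 were Hist1h2aa and Hist1h2ba, which encode testis forms.

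Histone genes often stand head to head and share 1 promoter region. Among the members there were 13 such pairs with start sites under 1000 bases apart, and in a pair of them the partners differed by far more than in the others. Hist1h2bc stood at 82.8 CPM per kb and its H2A partner Hist1h2ac, 251 bases away, at 0.452, a ratio of 183. Hist2h2be stood at 26.2 CPM per kb and Hist2h2ac, 239 bases away, at 0.416, a ratio of 63. In the pairs where both partners averaged at least 1 count the remaining ratios were 1.13 to 6.03. Hist1h2ac had 24, 20 and 18 counts against 16, 11 and 21.

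**Figure D5:**
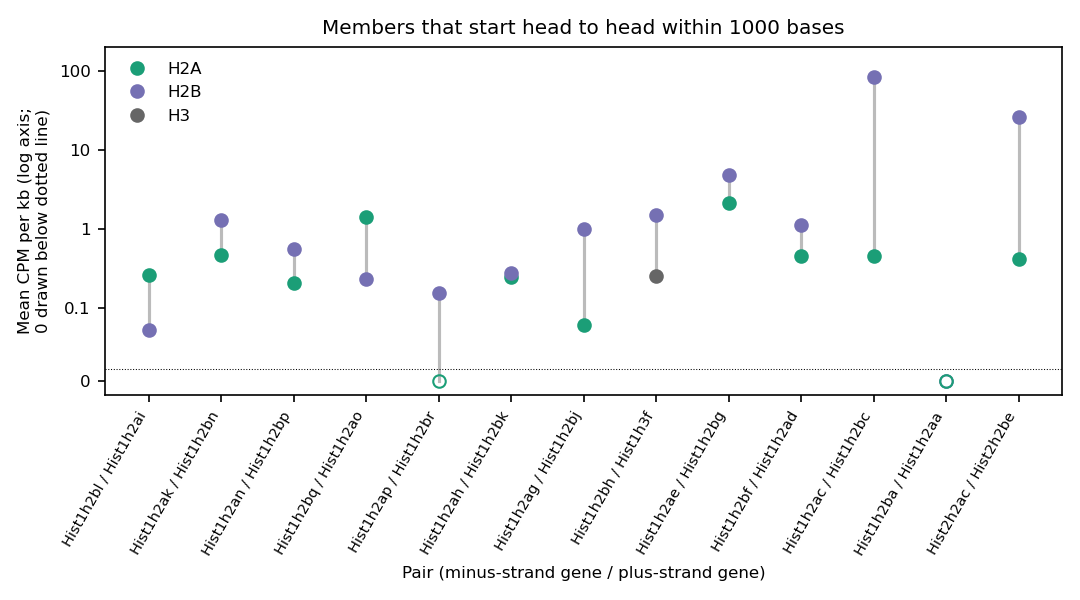
Mean CPM per kb over 6 libraries (log axis, 0 drawn open under the dotted line) of the partners of 13 head-to-head pairs, joined by a line and coloured by histone class. The H2B partner is far above the H2A partner in Hist1h2ac with Hist1h2bc and in Hist2h2ac with Hist2h2be, and the testis pair Hist1h2ba with Hist1h2aa is at 0.

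The whole stretch between the starts of Hist1h2ac and Hist1h2bc is shown because the same bases precede both the second-highest member and a gene near the limit of the test. It lies at chr13:23683949-23684198 and is written on the plus strand, the strand of Hist1h2bc, from RefSeq on GRCm38.p6. Capitals mark 1 octamer ATTTGCAT, known as a binding site of Oct-1 in H2B promoters, 3 CCAAT boxes and 1 TATA box, TATAAA, each searched on both strands.
Hist1h2ac to Hist1h2bc: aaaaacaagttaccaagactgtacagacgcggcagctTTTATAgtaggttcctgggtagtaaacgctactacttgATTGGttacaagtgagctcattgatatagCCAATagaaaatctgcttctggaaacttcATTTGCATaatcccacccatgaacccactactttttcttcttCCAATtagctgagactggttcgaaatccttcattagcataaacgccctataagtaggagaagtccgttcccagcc

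Promoters from RefSeq, reaching from 250 bases before to 50 after the start, were matched for 62 members. The octamer ATTTGCAT was found in 7 of 18 H2A and 7 of 16 H2B promoters and in none of the H1, H3 or H4 promoters, against 1.74% of all 32851 promoters. H2A and H2B partners of the head-to-head pairs have overlapping windows, and both strands were searched. The same octamer can therefore count for both classes. Members were scored per gene, with a match in any of its promoters, and the share over all is per promoter. CCAAT stood in 85.5% of the members' promoters against 37.4% of all, with H4 as the class where it was seldom found (3 of 12). TATAAA stood in 56.5% against 13.6%. These are matches of letters in a window, and nothing about the binding of a factor was measured.

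Lists of genes that act on histone genes, their transcripts or histone proteins were nearly all tested and gave no call in the same fit. Of 12 genes for 3′ end processing of histone transcripts, all 12 were tested, 6 with positive and 6 with negative log2 fold changes (median -0.03). Slbp, the stem-loop binding protein, stood at 45.9 ± 1.85 CPM in the empty-vector and 52.3 ± 4.01 CPM in the Vdbp-labelled libraries (SD, n = 3, edgeR adjusted p = 0.781), with overlapping groups. The genes with most counts on that list were Sympk, Ncbp1 and Srrt. On the list for transcription of histone genes 10 of 11 were tested and 6 were positive (median 0.01), with E2f1, Nfya and Cdk2 the highest. On the decay list 9 of 9 were tested and 3 were positive (median -0.09), with Smg1, Upf1 and Exosc10 the highest. On the list of histone chaperones 16 of 16 were tested and 6 were positive (median -0.06), with Nap1l1, Ssrp1 and Rbbp4 the highest.

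Replacement histones, which are made outside S phase as well, were detected at higher levels than the replication-dependent genes. Their 16 listed genes summed to 1712, 1637 and 1842 CPM in the empty-vector libraries and to 1883, 1991 and 1798 CPM in the Vdbp-labelled ones. That was 4.09 ± 0.29 and 4.57 ± 0.28 times the sum of the 67 members (SD, n = 3). Of the 10 tested, 9 had positive log2 fold changes (median 0.12) and none was called. The groups did not overlap for 3 of them, H2afx, H3f3b and Cenpa, each higher in the libraries labelled Vdbp, against 5.26% of all tested genes that lay wholly higher. Per kb, H2afz stood at 222, H3f3b at 204.5 and H1f0 at 106 CPM per kb, so that H1f0 and Hist1h1c were at about the same level.

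The list of S phase genes gave 2960 to 3144 CPM in sum, with 20 of 20 genes tested, 13 positive (median 0.04) and none called. Rrm2, a subunit of ribonucleotide reductase, stood at 337 ± 13.01 and 338 ± 11.3 CPM (SD, n = 3), and Rrm1 and Mcm6 were the others with most counts. Per kb, Rrm2 stood at 122, Mcm6 at 69.9 and Rrm1 at 30.9 CPM per kb, where 43 of the 67 histone genes stood under 1.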

How the data were processed

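Messenger RNA libraries of 6 DC2.4 samples were compared, 3 with the empty pTT5 vector and 3 labelled Vdbp, grouped by the labels. The submitters' processing notes list HISAT2 and StringTie. Which tool counted the reads, on which build and annotation, is not given in the sources used here. Deposited by the authors were raw counts per gene and FPKM values. The deposited FPKM equalled the count divided by gene length and by 1 constant per library (largest relative gap 5.1e-15), so counts were used for every result and FPKM for alternatives.

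In R 4.3.3, edgeR 4.0.16 was run on all genes: filterByExpr (count 10, total 15, proportion 0.7), TMM scaling, and a two-sided quasi-likelihood F test on group, with Benjamini-Hochberg adjustment over all tested genes and a threshold of 0.05. CPM per kb divides CPM by the gene length of the table. A count of 0 was read as allowing 3 counts, which covers counting error only. The fit was tested on simulated data. No 2 libraries of a group agreed within sampling noise (chi-square over its degrees of freedom 7.36 to 27.2).

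Transcript ends, shared 50- and 100-base windows and overlaps came from GENCODE M21, in which all 67 members had the same start and end as in the table, and promoters from RefSeq (GRCm38.p6). The members, lists and tests were chosen with earlier results of these data known. Named were the 12 members with the highest CPM per kb and the highest of each class, the 3 highest and 3 lowest fold changes, the 5 largest CVs, the tested member with the lowest and the untested member with the highest count, and the 3 highest genes of each other list. Any other gene named was chosen after its values were seen. Alternatives were other scalings (RLE, upper quartile, total counts), DESeq2 1.42.0, limma 3.58.1 (voom, or log2 FPKM with a pseudocount of 1 or 0.1), other filters, the replicate number as a block, a length and GC offset (mgcv 1.9.3), and leaving out each library.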

Additional observations from a re-analysis of the deposited data

How the results depend on the processing

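No member was called under any of 19 alternatives, and none of 372 values of the 20 tested named members passed the threshold (smallest adjusted p 0.328). Among all genes the calls rose from 0 to 89 with no filter on low counts, 4 with DESeq2, 2 with the length and GC offset, and 0 to 22 on leaving out 1 library (22 without empty-vector replicate 3 and 1 without replicate 2 of that group). Leaving out both libraries at the ends of the GC trend, chosen after seeing the data, gave 2. Members tested rose to 59 with no filter, and were 17 at 1 CPM and 28 to 31 on leaving out a library. The log2 ratio of summed CPM was -0.06 to 0.01 on leaving out a library, -0.01 from FPKM and -0.08 without Hist1h1c, also chosen after seeing the data. The members' median lay between -0.08 and 0.02. The log2 fold change of Hist1h2ae ranged from 0.65 to 1.08 and that of Hist1h2bc from -0.31 to -0.16.

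Replicate numbers did not pair the libraries: the correlations of same-numbered libraries were 0.14, 0.03 and -0.27. With the number as a block no gene and no member was called, Hist2h2be was -0.0011 and Hist1h3d -0.0027.

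The sign turned in 40 of the 372 values. The cause was not tested. With total-count scaling Hist2h2be was -0.0026 and Hist1h3d -0.00024. With limma-voom they were -0.0013 and -0.0042. On log2 FPKM Hist1h3d was -0.0026 (pseudocount 1) and -0.0061 (0.1). With the offset Hist1h1c was -0.066, Hist1h3g -0.0030, Hist1h3i -0.21, Hist1h3d -0.014 and Hist1h3c -0.081, and with offset and block -0.069, -0.0076, -0.22, -0.019 and -0.072. On leaving out 1 library Hist2h2be ranged from -0.034 to 0.066, Hist1h1c from -0.031 to 0.099, Hist1h1b from -0.25 to 0.12, Hist1h3i from -0.35 to 0.26, Hist1h3d from -0.15 to 0.11, Hist1h3c from -0.31 to 0.44, Hist3h2a from -0.24 to 0.46 and Hist1h2bf from -1.88 to 0.043. Without both ends of the GC trend Hist1h1c was -0.035, Hist1h4i -0.018, Hist1h1b 0.18, Hist1h4h -0.13 and Hist1h3d -0.031.

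Depth limits the rest: 44 members had mean counts under 10, and for 9 of the 25 tested a 2-fold difference lay within the interval.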

Other observations

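Among the untested members, Hist1h1a, a linker histone gene, had 8, 10 and 8 counts in the empty-vector libraries and 2, 3 and 6 in the libraries labelled Vdbp, without overlap. It was picked out after its values were seen. In the edgeR fit without a filter its log2 fold change was -1.17 (adjusted p = 0.787), and DESeq2 gave -1.19 (adjusted p = 0.991). Other untested members without overlap were Hist1h2ad and Hist1h2an, also lower in the libraries labelled Vdbp, and Hist1h3f, higher in them. Of all tested genes 5.61% lay wholly lower and 5.26% wholly higher, and no such share is given here for untested genes. Hist1h2af, an H2A gene, had 1, 1 and 16 counts against 12, 7 and 7, so a single empty-vector library held most of the counts of that group. It too was picked out after its values were seen.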
